A study of Homo sapiens with 52 samples.

Results

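Potassium channel genes of the voltage-gated families and the sodium-activated KCNT genes were followed across soma and neurite libraries of human i3Neurons. The members are the protein-coding genes whose symbol is KCN, then 1 of the letters A, B, C, D, F, G, H, Q, S, T or V, then a number. This rule found 42 of the 63241 genes in the deposited table, of which 19921 are protein-coding.

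All groups derive from the induced pluripotent stem cell line WTC11, so they share 1 genetic background, and were turned into neurons with doxycycline. The neurons were replated on day 3 onto inserts with 1 µm pores and harvested on day 17. Neurites pass such pores, so neurites and soma were collected as separate fractions. In the hnRNPA1 experiment, CRISPR interference (CRISPRi, guide-directed silencing of transcription) against hnRNPA1 gave 6 knockdown libraries per fraction, against 6 with a nontargeting guide. In the TDP43 experiment, CRISPRi against TDP-43 gave 5 knockdown libraries per fraction, against 5 with a nontargeting guide. The untreated neurons carried no guide and gave 4 neurite and 4 soma libraries. Untreated libraries were made with version 2 of the library kit and the others with version 3, so kit and experiment cannot be told apart. The sources used here do not say how many guides or clones stand behind a group.

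Voltage-gated potassium channels open on depolarization and repolarize the membrane, and so set spike shape, firing rate and excitability. KCNA to KCND and KCNH and KCNQ subunits form channels of their own, while KCNF, KCNG, KCNS and KCNV subunits are silent alone and modify KCNB channels. KCNT channels open with intracellular sodium. In neurons, KCNA1 and KCNA2 are classically axonal, KCNB and KCND channels somatodendritic, and KCNQ channels carry the M-current, which damps repetitive firing.

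Both knocked-down proteins bind RNA, TDP-43 at GU repeats and hnRNPA1 at UAGGGA-like motifs, so the members' transcripts were searched for these letters, written with T. Only the transcript strand of the longest coding transcript of each gene (GENCODE 29) was searched, for each motif on its own. In 1000-base windows, GTGTGTGT occurred in 11 of 218 member windows (5.05%), against 4.54% of 62414 windows over all protein-coding genes. TAGGGA occurred in 40 of 218 member windows (18.35%), against 12.68% over all protein-coding genes. Of the 24 members called in a TDP43 knockdown comparison described below, 9 held GTGTGTGT, against 2 of the other 18. The median transcript of the 24 was also longer, at 5754 bases against 3845.5 bases. The other 18 include KCNA7, KCNA10, KCNG1, KCNG3, KCNG4 and KCNV1. These were not tested in the TDP43 experiment, so they could not be called, and they held no GTGTGTGT. Of the 9 called members with GTGTGTGT, 7 are shown as 30-base transcript windows, with the GT run in capitals. Transcripts are from GENCODE 29 with hg38 positions, all on the minus strand except KCNC4. They show the letters found in called members. The part of these runs in the results was not tested.
KCNA2, 3′ UTR in exon 3 of 3, chr1:110594330-110594359: ttgtgtgtgatGTGTGTGTatatatatata
KCNA4, 3′ UTR in exon 2 of 2, chr11:30010383-30010412: tgtgtatatGTGTGTGTGTGTgaagtaaat
KCNC2, coding part of exon 3 of 5, chr12:75051125-75051154: atgtagaaggaGTGTGTGTggtgtggttta
KCNC4, coding part of exon 1 of 4, chr1:110211501-110211530: tgatcagctcgGTGTGTGTctcctcctacc
KCNH1, coding part of exon 7 of 11, chr1:210919936-210919965: ggtcctgctgGTGTGTGTGTttgggctggc
KCNH5, coding part of exon 7 of 11, chr14:62950426-62950455: cgtgctcctgGTGTGTGTGTttggactggt
KCNS1, 3′ UTR in exon 5 of 5, chr20:45092721-45092750: catgtgtgaagGTGTGTGTcatacacaggg

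The KCNH1 and KCNH5 windows lie in the same exon number of these related genes and share the run of 10 bases and its flanking ttgg. For hnRNPA1, 7 of the 14 members called in a knockdown comparison held TAGGGA, against 17 of the other 28. The other 28 include KCNA1, KCNA7, KCNA10, KCNG3, KCNG4 and KCNV1, which were not tested in the hnRNPA1 experiment. From those 7, 5 are shown for comparison, on the minus strand unless stated, with the motif in capitals.
KCNA2, 3′ UTR in exon 3 of 3, chr1:110599049-110599078: aggtaacaacagTAGGGAgtggacatatgg
KCNC2, 3′ UTR in exon 5 of 5, chr12:75041635-75041664: caacaaaatcctTAGGGAgtcatattcagt
KCNH1, 3′ UTR in exon 11 of 11, chr1:210680467-210680496: ctggagagagatTAGGGAaacaaaaagtta
KCNH7, coding part of exon 13 of 16, chr2:162384757-162384786: cttctccaggaaTAGGGAaagcatctgggc
KCNQ5, 3′ UTR in exon 15 of 15, plus strand, chr6:73195565-73195594: aaaatgcatgttTAGGGAtggctaaaattc

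Of 52 libraries 51 were used, since sample 5 of the TDP43 knockdown soma had 541 counts in total, and that group has 4 libraries. In units of 1e6 counts, depth was 2.54 to 4.35 in untreated neurites and 5.21 to 10.5 in untreated soma, and 6.26 to 28.9 in the knockdown experiments. The silenced gene was low where the labels put the knockdown. HNRNPA1 averaged 201 ± 16.0 CPM in knockdown neurites and 590 ± 32.6 CPM in nontargeting neurites (SD, n = 6 each). TARDBP, the TDP-43 gene, averaged 41.8 ± 4.26 CPM in knockdown neurites and 117 ± 7.26 CPM in nontargeting neurites (n = 5 each). In soma, HNRNPA1 averaged 141 ± 9.35 CPM with knockdown and 361 ± 20.7 CPM with the nontargeting guide (n = 6 each), and TARDBP 19.5 ± 0.927 CPM with knockdown (n = 4) and 111 ± 4.59 CPM with the nontargeting guide (n = 5). Markers fit neurons, with 10 neuron markers summing to at least 4877 CPM in every library and none at 0. Pluripotent (6 of a list of 7 genes), astrocyte and oligodendrocyte (8) and mesenchymal (8) markers each summed to at most 18.3, 60.6 and 37.3 CPM in any library. Neural progenitor markers (7 genes) summed to more, from 77.0 CPM in the lowest untreated soma library to 713 CPM in the highest hnRNPA1 knockdown neurite library. Cycling markers (8 genes) were higher in neurites: they summed to 64.0 to 84.8 CPM in untreated neurites and 30.6 to 49.9 in untreated soma, 29.4 to 37.6 in hnRNPA1 nontargeting neurites and 14.9 to 17.3 in their soma, and 26.2 to 32.9 in TDP43 nontargeting neurites and 11.4 to 12.4 in their soma. Of those tested, 4 of 6, 5 of 5 and 6 of 6 cycling markers were called higher in neurites in these 3 sets, as were 2 of 3, 5 of 7 and 3 of 7 neural progenitor markers. Called lower were 1 cycling marker in untreated neurites and 1 progenitor marker in each nontargeting set. The part of these genes in the fraction differences below was not tested. In bulk samples, fewer cells of a type and less RNA per cell cannot be told apart.

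Most of the 42 genes were measurable. A filter on low counts was passed by 30 members in untreated cells, by 36 in the hnRNPA1 experiment and by 36 in the TDP43 experiment, and by 28 in all 3. KCNA7, KCNA10, KCNG3 and KCNG4 passed in none, although KCNG3 had counts in 45 of 51 libraries. KCNF1, KCNG2, KCNH4, KCNH6, KCNQ1 and KCNV2 passed in both knockdown experiments and not in untreated cells. KCNA1 passed in untreated cells and the TDP43 experiment, KCNG1 in the hnRNPA1 experiment and KCNV1 in untreated cells. Some members share exon sequence with other genes and the strand setting of the counting is not given, so their values are less certain. KCNA6 shares all of its exon bases with GALNT8 on the same strand, KCNC2 shares 35.5% with an antisense gene, and KCNH1 shares 36.9% with a gene on the opposite strand. KCNH1 also shares 16.1% with a protein-coding gene on the same strand and 3.9% with another.

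Per kb of exon, KCNB2, a delayed rectifier gene, averaged 20.1 ± 1.54 CPM per kb in TDP43 knockdown neurites, against 17.1 ± 1.238 in nontargeting neurites (SD, n = 5 each). The ether-a-go-go related (ERG) channel gene KCNH2 averaged 19.1 ± 1.65 CPM per kb in knockdown neurites, against 17.0 ± 1.75 in nontargeting neurites. KCNH7, another ERG gene, averaged 18.5 ± 1.37 CPM per kb in knockdown neurites, against 17.9 ± 2.18 in nontargeting neurites. In both groups neighbouring means among KCNB2, KCNH2 and KCNH7 lay within 1 SD of each other. Untreated neurons had another order: KCNH7 led in neurites at 86.7 ± 8.24 CPM per kb, followed by the ELK-type gene KCNH8 at 24.4 ± 1.89, sodium-activated KCNT2 at 21.3 ± 3.37 and KCNB2 at 19.9 ± 1.89 (n = 4). In untreated soma the leaders were KCND3, an A-type channel, at 11.1 ± 0.860 CPM per kb, and KCNH7, KCNA3, KCNT2 and KCNB2 between 9.14 and 10.1. Each of these lay within about 1 SD of the next, so their order is not resolved.

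As a share of the members' summed CPM, which does not depend on scaling, KCNH genes together held 43.22 ± 2.52% in neurites of untreated cells and 14.8 ± 0.366% in their soma (SD, n = 4 per fraction). In the TDP43 experiment their share was 19.4 ± 0.859% in knockdown neurites and 23.9 ± 0.774% in nontargeting neurites (n = 5 each). The members' summed CPM was 1519 ± 63.5 in these knockdown and 1187 ± 105 in these nontargeting neurites. The lower share alone therefore does not show a lower KCNH level. In the hnRNPA1 experiment it was 17.6 ± 0.810% in knockdown neurites and 19.9 ± 1.27% in nontargeting neurites (n = 6 each).

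**Figure D1:**
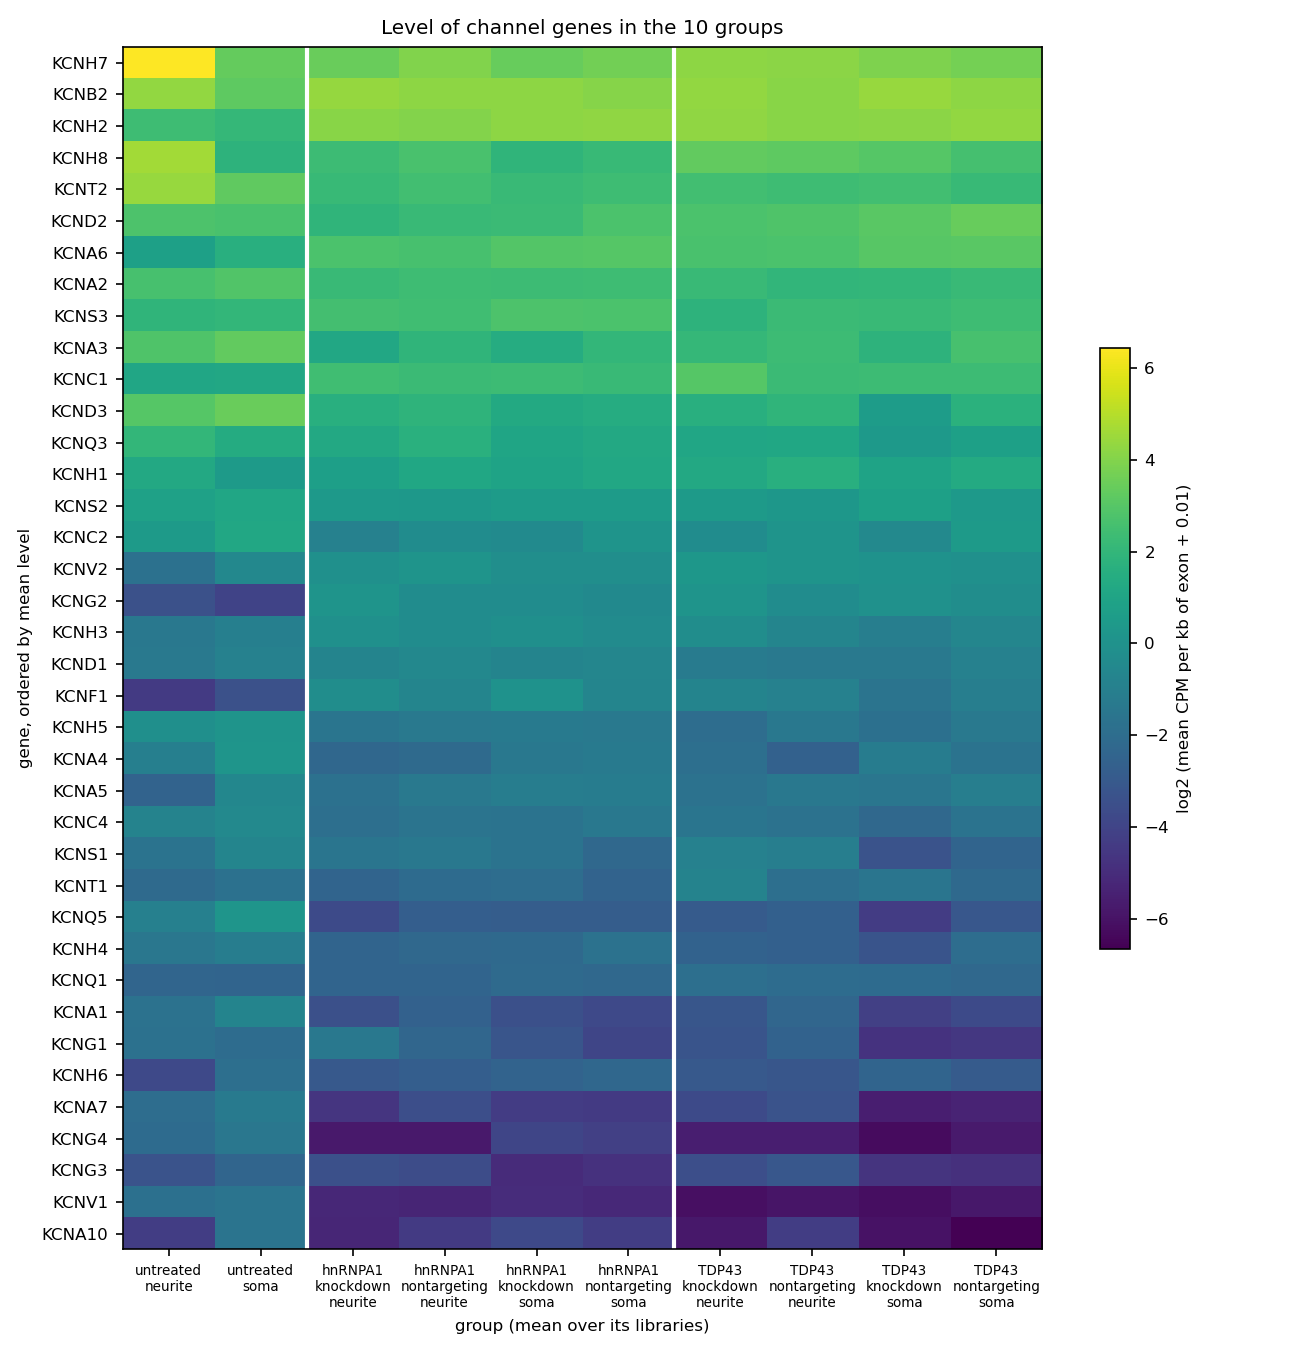
Mean level of 38 of the 42 genes (rows, by mean level) in the 10 groups (columns), as log2 of CPM per kb of exon plus 0.01; white lines part the 3 experiments. KCNH7 in untreated neurites (86.7 CPM per kb) is the brightest cell.

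In untreated neurons, ERG-type KCNH7 and ELK-type KCNH8 were the members most abundant in neurites relative to soma. Of 30 members tested, 8 were called higher and 9 lower in neurites, against 56.5% of all genes called (28.7% higher, 27.8% lower), so the members' share (56.7%) was near the background. A call is an adjusted p under 0.05 in edgeR's quasi-likelihood test with Benjamini-Hochberg adjustment over all genes tested. The labels do not say whether the numbered samples are separate cultures, so p-values measure the spread between these samples, which may be technical. Values are CPM per library, and log2 changes carry the standard error of the fit. The members' median log2 was -0.28, against -0.21 over all genes.

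KCNH7 had 455, 469, 377 and 425 CPM in the 4 neurite libraries, against 53.4, 50.4, 55.3 and 41.7 CPM in the 4 soma libraries. Its log2 ratio was 3.09 ± 0.11 (edgeR adjusted p = 1.3e-15). KCNH8 had 161, 157, 135 and 146 CPM in neurites, against 22.3, 20.4, 23.3 and 20.3 CPM in soma, a log2 ratio of 2.78 ± 0.10 (edgeR adjusted p = 1.1e-15). Neurite and soma libraries were far apart for both genes. Sodium-activated KCNT2 had 182, 159, 132 and 132 CPM in neurites, against 80.0, 67.2, 63.8 and 59.6 CPM in soma (log2 1.147 ± 0.12, edgeR adjusted p = 2.7e-08). The delayed rectifier gene KCNB2 had 66.4, 66.6, 80.8 and 71.7 CPM in neurites, against 34.7, 33.7, 36.1 and 26.5 CPM in soma (log2 1.127 ± 0.11, edgeR adjusted p = 2.4e-08). These groups did not overlap either.

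The members lowest in neurites relative to soma were sparse. KCNA5, a delayed rectifier best known from heart muscle, had 1.92 CPM in neurite sample 5 and 0 in the other 3 neurite libraries, against 1.82, 1.79, 1.72 and 1.94 CPM in soma. Its 3 neurite and 90 soma counts give a ratio of 0.198 (95% exact interval 0.0401 to 0.597, counting error only). The fitted log2 ratio was -2.30 ± 0.73 (edgeR adjusted p = 0.010), and without neurite sample 4, 6 or 7 it lay between -1.93 and -1.62 with adjusted p between 0.0506 and 0.103. The A-type gene KCNA4 had 1.896, 2.56, 1.32 and 2.44 CPM in neurites, against 3.05, 4.28, 6.16 and 5.43 CPM in soma (log2 -1.231 ± 0.38, edgeR adjusted p = 0.0098). Without neurite sample 6 its log2 ratio was -0.92 with edgeR adjusted p = 0.0906. KCNQ5, an M-current subunit, had 4.42, 2.56, 3.97 and 4.48 CPM in neurites, against 6.49, 10.5, 6.88 and 9.82 CPM in soma (log2 -1.08 ± 0.28, edgeR adjusted p = 0.0029). The silent subunit gene KCNS1 had 0.632, 1.92, 1.32 and 1.63 CPM in neurites, against 2.34, 3.27, 2.51 and 3.10 CPM in soma (log2 -0.99 ± 0.40, edgeR adjusted p = 0.039). For KCNS1 the call ended when any of 6 libraries was left out (neurite sample 4, 5, 6 or 7, or soma sample 5 or 7), with adjusted p between 0.0600 and 0.194. Neurite and soma libraries of KCNA4, KCNQ5 and KCNS1 did not overlap, while those of KCNA5 did. KCNA4, KCNA5 and KCNS1 each met the CPM minimum of the count filter in 4 of 4 soma and 0 of 4 neurite libraries, so their direction was not independent of the filter. Without the filter the KCNS1 call ended (edgeR adjusted p = 0.113), as it did with DESeq2 (adjusted p = 0.0966).

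By family, 5 of 6 KCNA genes tested were lower in neurites, and 3 of 6 KCNH genes were higher. Among these 5 are KCNA4 and KCNA5, whose direction was not independent of the filter, and KCNA6, which shares its exon bases with GALNT8. The scaling sets many of these directions. With library sizes in place of TMM the all-gene median was -1.43, 2 members were called higher (KCNH7 and KCNH8) and 26 lower, and the 6 other members called higher, KCNB2, KCNH1, KCNQ3 and KCNT2 among them, turned to the lower side. KCNT2 and KCNB2 were both at -0.10 there.

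The nontargeting libraries of the knockdown experiments gave smaller ratios, with KCNH8 again among the members called highest in neurites and KCNA4 the lowest. In the hnRNPA1 experiment 9 members were called higher and 7 lower of 36 tested (background 48.4% called, 23.5% higher and 24.9% lower), and in the TDP43 experiment 9 higher and 8 lower of 36 (background 46.5%, 24.1% higher and 22.3% lower). The members' median log2 was 0.04 and -0.03, and that of all genes -0.05 and -0.03. In both sets KCND2, KCNC2, KCNA6 and KCNA4 were the 4 lowest of the called members.

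In the hnRNPA1 nontargeting libraries the lowest, median and highest values are given. The silent subunit gene KCNG1 had 0.759, 0.971 and 1.39 CPM in 6 neurite libraries, against 0, 0.341 and 0.643 CPM in 6 soma libraries (log2 1.68 ± 0.36), without overlap and from at most 15 counts a library. It passed the count filter through neurites alone, reaching its CPM minimum in 6 of 6 knockdown and 3 of 6 nontargeting neurite libraries and in 0 of 12 soma libraries, so this ratio is given as a description. KCNS1 had 1.02, 1.33 and 3.11 CPM in neurites, against 0.511, 0.901 and 1.34 CPM in soma (log2 0.81 ± 0.26, edgeR adjusted p = 0.0096). Its groups overlapped, and without neurite sample 6 the log2 ratio was 0.58 with edgeR adjusted p = 0.0583. KCNH8 had 33.2, 39.3 and 44.3 CPM in neurites, against 21.2, 28.1 and 29.4 CPM in soma (log2 0.51 ± 0.08, edgeR adjusted p = 2.1e-06). The M-current gene KCNQ3 had 36.2, 40.3 and 44.2 CPM in neurites, against 26.0, 30.1 and 32.5 CPM in soma (log2 0.44 ± 0.06, edgeR adjusted p = 1.5e-07). Neither of these overlapped.

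On the low side KCNA4 had 0.557, 0.911 and 1.42 CPM in hnRNPA1 nontargeting neurites, against 1.47, 1.67 and 1.79 CPM in soma (log2 -0.83 ± 0.21, edgeR adjusted p = 0.0015). It met the count filter's CPM minimum in 6 of 6 nontargeting soma and 2 of 6 nontargeting neurite libraries. With knockdown these were 6 of 6 and 1 of 6, so its direction was not independent of the filter. KCND2, an A-type channel of dendrites, had 25.2, 26.0 and 26.8 CPM in neurites, against 33.8, 37.8 and 38.3 CPM in soma (log2 -0.50 ± 0.06, edgeR adjusted p = 6.6e-09). Both groups were apart. The high-threshold gene KCNC2, of the family that serves fast firing, had 4.59, 5.17 and 5.99 CPM in neurites, against 6.14, 7.04 and 8.14 CPM in soma (log2 -0.45 ± 0.11, edgeR adjusted p = 0.00079). KCNA6 had 24.7, 25.8 and 30.5 CPM in neurites, against 30.6, 33.6 and 36.7 CPM in soma (log2 -0.34 ± 0.06, edgeR adjusted p = 2.0e-05). Neurite and soma libraries were apart for both, though the highest neurite library of KCNA6 came close to the lowest soma library.

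In the TDP43 nontargeting libraries KCNA1, the axonal delayed rectifier gene, had 2.23, 1.105, 2.54, 0.143 and 1.51 CPM in neurites, against 0.679, 0.535, 0.391, 0.678 and 0.382 CPM in soma (log2 1.48 ± 0.41, edgeR adjusted p = 0.0040). One neurite library, at 0.143 CPM, was below all soma libraries. KCNA1 met the count filter's CPM minimum in 4 of 5 nontargeting and 3 of 5 knockdown neurite libraries. In soma these were 2 of 5 and 0 of 4, so its direction was not independent of the filter. KCNS1 had 1.79, 1.41, 3.09, 1.57 and 2.80 CPM in neurites, against 0.479, 0.749, 0.635, 1.09 and 1.02 CPM in soma (log2 1.37 ± 0.30, edgeR adjusted p = 0.00033). KCNH8 had 59.2, 58.8, 58.3, 54.9 and 50.9 CPM in neurites, against 37.5, 34.6, 41.01, 34.4 and 39.2 CPM in soma (log2 0.59 ± 0.07, edgeR adjusted p = 1.8e-08). KCNH7 had 103, 96.1, 75.5, 87.6 and 82.2 CPM in neurites, against 68.7, 63.6, 69.2, 60.1 and 62.4 CPM in soma (log2 0.46 ± 0.07, edgeR adjusted p = 2.0e-06). Apart from KCNA1, these groups did not overlap.

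KCNA4 had 0.894, 0.402, 0.726, 0.570 and 0.753 CPM in TDP43 nontargeting neurites, against 1.08, 1.28, 1.42, 1.36 and 1.401 CPM in soma (log2 -0.94 ± 0.25, edgeR adjusted p = 0.0027). It met the count filter's CPM minimum in 5 of 5 nontargeting soma and 1 of 5 nontargeting neurite libraries, and in 4 of 5 knockdown neurite libraries. KCND2 had 39.7, 39.8, 31.2, 41.6 and 43.0 CPM in neurites, against 62.1, 61.5, 55.6, 55.9 and 56.5 CPM in soma (log2 -0.57 ± 0.06, edgeR adjusted p = 3.0e-08). Both were apart in every library. KCNC2 had 5.36, 5.83, 7.98, 6.41 and 8.93 CPM in neurites, against 7.23, 10.5, 8.74, 9.18 and 9.85 CPM in soma (log2 -0.41 ± 0.13, edgeR adjusted p = 0.012). Its groups overlapped, and without neurite sample 1 the log2 ratio was -0.32 with edgeR adjusted p = 0.067. KCNA6 had 29.3, 30.3, 24.3, 23.5 and 33.03 CPM in neurites, against 36.3, 37.8, 33.2, 35.7 and 35.7 CPM in soma, just without overlap (log2 -0.33 ± 0.07, edgeR adjusted p = 0.00041).

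Scaling again set the sides. With library sizes in place of TMM the all-gene median moved to -0.40 in the hnRNPA1 and -0.63 in the TDP43 nontargeting libraries, and calls became 1 higher and 20 lower, and 2 higher and 25 lower. Members that changed sign included KCNB2 and KCNH7 in the hnRNPA1 libraries, and KCNH1, KCNH7, KCNH8, KCNQ3, KCNT2 and KCND3 in the TDP43 libraries, where KCNH8 was at -0.02 and KCNH7 at -0.14. KCNA1 and KCNS1 stayed higher in TDP43 neurites, as did KCNG1 in hnRNPA1 neurites, though KCNA1 and KCNG1 passed the count filter mainly through neurites.

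**Figure D2:**
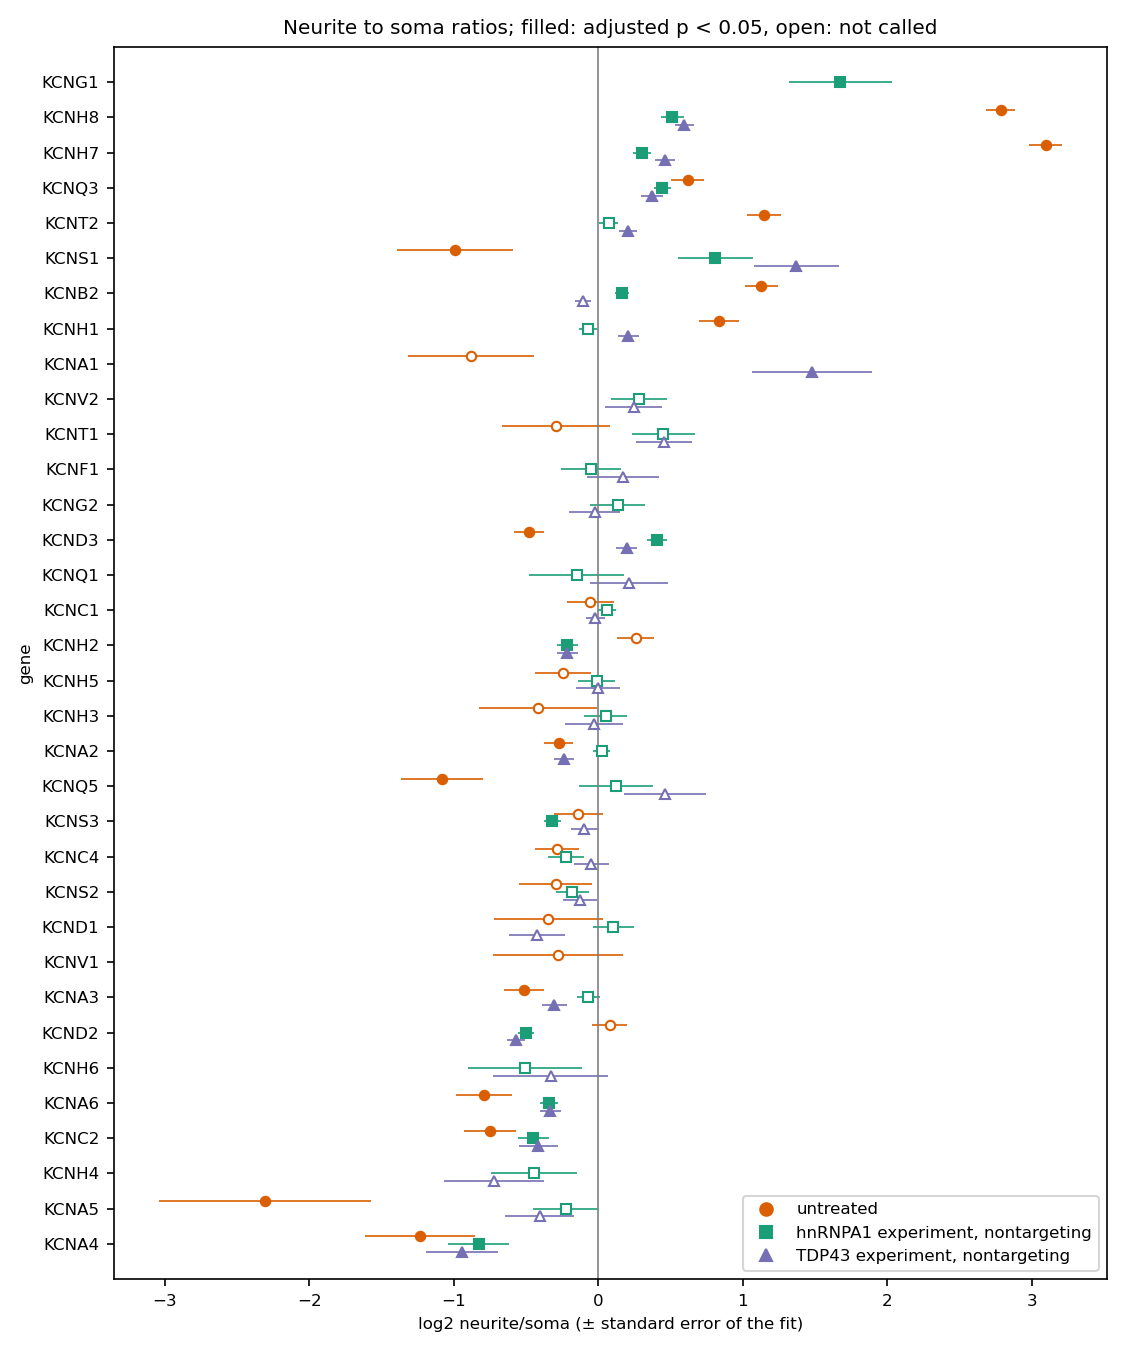
Log2 neurite over soma ratio (horizontal axis, ± standard error) of tested members (rows) in untreated cells (circles) and in nontargeting libraries of the hnRNPA1 (squares) and TDP43 (triangles) experiments; filled symbols are called. KCNH7 and KCNH8 of untreated cells stand at 3.09 and 2.78, and KCNA4 lies below 0 in all 3 sets; TMM scaling was used, and library sizes turn 12 of the called points shown on the positive side to the negative side.

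The difference between these ratios was tested in a joint fit of untreated and nontargeting libraries. Of 40 members tested, 7 had a higher and 13 a lower neurite to soma ratio in untreated than in nontargeting neurons (background 41% called, 13.9% higher and 27.1% lower). The ratio of KCNH7 was higher by 2.48 ± 0.11 on the log2 scale and that of KCNH8 by 2.00 ± 0.11 (edgeR adjusted p = 9.8e-22 and 8.8e-19). On the lower side were axonal KCNA1 (-2.47 ± 0.48), KCNS1 (-2.31 ± 0.47) and KCND3 (-1.01 ± 0.11), with edgeR adjusted p = 4.8e-05, 9.3e-05 and 1.3e-10. KCND3 was thus lower in neurites in untreated cells (log2 -0.48 ± 0.11), while in nontargeting cells it was higher by 0.41 ± 0.07 and 0.20 ± 0.07. With library sizes the first of these, in the hnRNPA1 experiment, was not called higher, and the last, in the TDP43 experiment, changed sign. The members' median difference was -0.38, against -0.46 over all genes. Guide and kit version differ together in this comparison, and their parts cannot be told apart. With library sizes 3 members were higher and 26 lower, and KCND2 was among those that changed sign.

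Knockdown of hnRNPA1 lowered a small set of channel genes in soma, among them KCNA3, KCNC2, KCND2 and KCNH7. Of 36 members tested 1 was called higher and 5 lower, against 7.09% of all genes (3.79% higher, 3.3% lower). The members' share was 16.7%. The median log2 over members was -0.03 and over all genes 0.00. Neural progenitor markers summed to 327 to 365 CPM in knockdown soma and 249 to 273 CPM in nontargeting soma (2 of 7 called higher), and their part was not tested. KCNA3, a delayed rectifier also known from T lymphocytes, had 6.74, 7.18 and 7.44 CPM as the lowest, median and highest of 6 knockdown soma libraries, against 9.14, 10.1 and 11.5 CPM in 6 nontargeting ones (log2 -0.52 ± 0.08, edgeR adjusted p = 4.5e-05). KCNC2 had 4.26, 4.82 and 5.66 CPM with knockdown, against 6.14, 7.04 and 8.14 CPM with the nontargeting guide (log2 -0.55 ± 0.10, edgeR adjusted p = 0.00062). KCND2 had 24.5, 26.3 and 29.2 CPM with knockdown, against 33.8, 37.8 and 38.3 CPM with the nontargeting guide (log2 -0.46 ± 0.06, edgeR adjusted p = 4.3e-07). None of these 3 overlapped.

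KCNH1, an ether-a-go-go (EAG) channel gene, had 17.6, 18.4 and 20.2 CPM in knockdown soma, against 21.6, 22.4 and 22.7 CPM in nontargeting soma, also apart (log2 -0.24 ± 0.06, edgeR adjusted p = 0.011). KCNH7 had 47.6, 52.0 and 56.9 CPM with knockdown, against 55.5, 61.0 and 69.2 CPM with the nontargeting guide (log2 -0.26 ± 0.06, edgeR adjusted p = 0.0076), with overlap. The silent subunit gene KCNF1 alone rose: it had 0.946, 2.49 and 2.88 CPM with knockdown, against 1.09, 1.48 and 1.64 CPM with the nontargeting guide (log2 0.74 ± 0.18, edgeR adjusted p = 0.0080). One knockdown library, at 0.946 CPM, was the lowest of all 12 soma libraries.

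In neurites, hnRNPA1 knockdown lowered more members, 11 against 2 that rose, of 36 tested. Of all genes 16.2% were called (8.96% higher, 7.21% lower), and of the members 36.1%. The median log2 over members was -0.20, against 0.00 over all genes. Neural progenitor markers summed to 569 to 713 CPM in knockdown neurites and 456 to 567.9 CPM in nontargeting neurites (2 of 7 called higher, 1 lower), and their part was not tested. With library sizes the all-gene median was -0.14, and 0 members were called higher and 12 lower. Besides the 8 named below, KCND2, KCND3, KCNT2 and KCNA2 fell by 0.33, 0.28, 0.28 and 0.17 on the log2 scale and KCNB2 rose by 0.15, which library sizes did not keep.

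KCNA3 had 4.64, 5.97 and 6.41 CPM in 6 knockdown neurite libraries, against 8.24, 9.80 and 10.9 CPM in 6 nontargeting ones (log2 -0.73 ± 0.10, edgeR adjusted p = 3.5e-06). KCNH7 had 50.8, 52.9 and 63.3 CPM with knockdown, against 70.3, 74.5 and 85.7 CPM with the nontargeting guide (log2 -0.50 ± 0.07, edgeR adjusted p = 2.7e-06). KCNQ3 had 27.4, 29.9 and 33.5 CPM with knockdown, against 36.2, 40.3 and 44.2 CPM with the nontargeting guide (log2 -0.43 ± 0.06, edgeR adjusted p = 1.3e-05). For these 3 genes every knockdown library was below every nontargeting one. KCNC2 had 2.60, 3.39 and 5.09 CPM with knockdown, against 4.59, 5.17 and 5.99 CPM with the nontargeting guide (log2 -0.58 ± 0.14, edgeR adjusted p = 0.0040). KCNH1 had 14.1, 16.2 and 18.5 CPM with knockdown, against 18.5, 21.4 and 23.8 CPM with the nontargeting guide (log2 -0.37 ± 0.07, edgeR adjusted p = 0.00053). KCNH8 had 25.9, 31.3 and 35.5 CPM with knockdown, against 33.2, 39.3 and 44.3 CPM with the nontargeting guide (log2 -0.34 ± 0.09, edgeR adjusted p = 0.0058). The groups of these last 3 overlapped.

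The largest changes were in genes with few counts. KCNQ5 had 0, 0.553 and 0.744 CPM in knockdown neurites (0 to 5 counts), against 0.272, 1.2296 and 1.39 CPM in nontargeting neurites (2 to 20 counts), with overlap (log2 -1.08 ± 0.36, edgeR adjusted p = 0.033). Its call ended when any of 7 libraries was left out (knockdown sample 4, 5 or 6, or nontargeting sample 1, 2, 3 or 5), with adjusted p between 0.0517 and 0.0818, and without the count filter (edgeR adjusted p = 0.0600). KCNG1 had 1.234, 1.95 and 2.90 CPM in knockdown neurites, against 0.759, 0.971 and 1.39 CPM in nontargeting neurites, also with overlap (log2 0.93 ± 0.30). It is counted among the 2 that rose, but it passed the count filter mainly through the knockdown neurites, as given above, so the change is a description. Its call ended without the filter (edgeR adjusted p = 0.0627), with library sizes (0.0554) and without any of 6 libraries, knockdown sample 2, 5 or 6 or nontargeting sample 1, 2 or 3 (0.0614 to 0.092).

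Of the 6 members called in soma, 5 were also called in neurites and in the same direction (KCNA3, KCNC2, KCND2, KCNH1 and KCNH7), which is 83.3% of the soma and 38.5% of the neurite calls. The same overlap was not computed over all genes, so nothing particular to the members is read from it. The change of the neurite to soma ratio was called for 0 of 36 members by edgeR (background 0.177%, 0.0454% higher and 0.131% lower) and for 0 by DESeq2; 4 members had an unadjusted p under 0.05. The 7SL RNA genes, abundant small noncoding transcripts, took a median 9.27% of counts in knockdown neurites and 7.41% in nontargeting neurites, and their part was not tested.

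**Figure D3:**
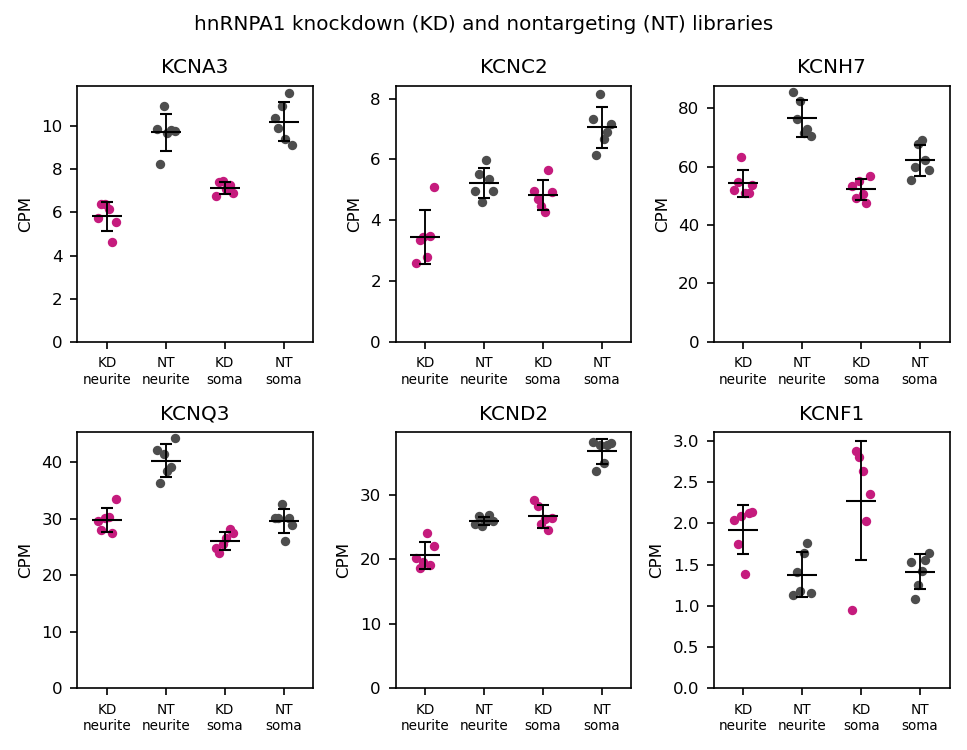
CPM (vertical axis, from 0) of 6 members in each library of the hnRNPA1 experiment, with knockdown (KD) left of nontargeting (NT) in neurites and then in soma; dots are libraries, bars the mean and SD. KCNA3 and KCND2 are lower with knockdown in both fractions, KCNQ3 is lower in neurites (29.8 against 40.3 CPM), and the KCNF1 mean in soma is higher with 1 low library.

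TDP43 knockdown changed 19 members in soma, most of them downward, with A-type KCND3 and high-threshold KCNC2 among the largest falls. Of 36 members tested 6 were called higher and 13 lower, against 18.9% of all genes (9.41% higher, 9.53% lower). The members' share was 52.8%. Their median log2 was -0.17, against 0.02 over all genes. With library sizes 1 member was higher and 8 lower, KCNC4, KCNC2, KCND3, KCNA3, KCNH1, KCNH4, KCNQ5 and KCNS1. Neural progenitor markers summed to 248 to 277 CPM in knockdown soma and 189 to 241 CPM in nontargeting soma (1 of 7 called higher, 2 lower), and their part was not tested.

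KCND3 had 10.9, 12.1, 11.2 and 12.6 CPM in the 4 knockdown soma libraries, against 27.2, 25.7, 26.1, 22.1 and 26.7 CPM in the 5 nontargeting ones (log2 -1.12 ± 0.08, edgeR adjusted p = 6.1e-12). KCNC2 had 4.82, 4.71, 3.76 and 4.81 CPM with knockdown, against 7.23, 10.5, 8.74, 9.18 and 9.85 CPM with the nontargeting guide (log2 -0.9985 ± 0.13, edgeR adjusted p = 8.3e-07). KCNA3 had 8.92, 8.28, 9.65 and 8.89 CPM with knockdown, against 16.1, 15.8, 15.04, 15.6 and 16.6 CPM with the nontargeting guide (log2 -0.83 ± 0.08, edgeR adjusted p = 1.3e-08). Knockdown libraries of these genes lay well below all nontargeting ones. KCNC4, which encodes a fast-inactivating channel, had 4.36, 5.64, 4.52 and 5.57 CPM with knockdown, against 7.51, 8.56, 7.23, 7.42 and 7.94 CPM with the nontargeting guide (log2 -0.61 ± 0.11, edgeR adjusted p = 0.00025). KCNT1, the sodium-activated Slack channel gene, was the member with the largest rise: 4.10, 4.26, 4.14 and 3.75 CPM with knockdown, against 2.36, 2.41, 2.29, 3.12 and 2.59 CPM with the nontargeting guide (log2 0.66 ± 0.16, edgeR adjusted p = 0.0043). Neither gene's groups overlapped.

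The sparse members moved as far. KCNQ5 had 0.256, 0.446, 0.342 and 0.190 CPM in knockdown soma, against 1.04, 0.321, 0.928, 0.859 and 0.976 CPM in nontargeting soma, where 1 library fell among the knockdown ones (log2 -1.47 ± 0.31, edgeR adjusted p = 0.00071). KCNH4, an ELK-type gene, had 0.205, 0.406, 0.512 and 0.381 CPM with knockdown, against 0.958, 1.177, 0.830, 1.04 and 0.849 CPM with the nontargeting guide, without overlap (log2 -1.32 ± 0.30, edgeR adjusted p = 0.0018). It met the filter's CPM minimum in 5 of 5 nontargeting and 0 of 4 knockdown soma libraries, so its direction was not independent of the filter. KCNS1 had 0.666, 0.284, 0.470 and 0.272 CPM with knockdown, against 0.479, 0.749, 0.635, 1.09 and 1.02 CPM with the nontargeting guide, with overlap (log2 -0.98 ± 0.35, edgeR adjusted p = 0.044). The KCNS1 call ended without any of 6 libraries (knockdown sample 2, 3 or 4, or nontargeting sample 2, 5 or 6), with adjusted p between 0.0617 and 0.183. Also lower were KCND1, KCNH5, KCNH1, KCNQ3 and KCND2, which fell by 0.51 to 0.31 on the log2 scale, and the other 5 that rose were KCNA4, KCNH8, KCNS2, KCNT2 and KCNB2, by 0.49 to 0.19. By family, all 3 KCND genes fell, while both KCNT genes rose, but with library sizes only KCND3 and KCNT1 of these kept the call.

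In neurites TDP43 knockdown raised KCNC1 and KCNT1 among others. Of 36 members 7 were called higher and 4 lower, against 24.8% of all genes (14% higher, 10.9% lower), and the members' share was 30.6%. Their median log2 was 0.13, against -0.03 over all genes. The summed CPM of all 42 genes was 1519 ± 63.5 in knockdown neurites and 1187 ± 105 in nontargeting neurites (SD, n = 5 each).

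KCNC1, a high-threshold gene of fast-firing neurons, had 112, 121, 109, 118 and 110 CPM in the 5 knockdown neurite libraries, against 74.9, 77.7, 54.8, 68.0 and 71.8 CPM in the 5 nontargeting ones (log2 0.71 ± 0.07, edgeR adjusted p = 5.2e-09). Every knockdown library exceeded every nontargeting one for KCNC1. KCNT1 had 5.46, 7.02, 7.59, 7.86 and 6.08 CPM with knockdown, against 5.27, 3.01, 1.45, 2.57 and 4.09 CPM with the nontargeting guide (log2 0.94 ± 0.19, edgeR adjusted p = 0.00043), again without overlap. KCNA2 and KCNB2 also rose, by 0.23 and 0.22.

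On the lower side KCNH5, an EAG channel gene, had 2.48, 2.61, 4.04, 2.80 and 3.24 CPM in knockdown neurites, against 4.56, 5.02, 3.09, 4.99 and 5.27 CPM in nontargeting neurites, with overlap (log2 -0.65 ± 0.18, edgeR adjusted p = 0.011). The silent subunit gene KCNS3 had 11.4, 12.2, 10.0, 12.1 and 9.95 CPM with knockdown, against 15.4, 12.8, 16.7, 18.8 and 13.1 CPM with the nontargeting guide (log2 -0.45 ± 0.10, edgeR adjusted p = 0.0020). Its groups were just apart. KCNH1 had 22.2, 28.5, 23.1, 20.2 and 22.7 CPM with knockdown, against 29.5, 28.5, 28.5, 30.8 and 29.6 CPM with the nontargeting guide (log2 -0.36 ± 0.08, edgeR adjusted p = 0.0016), where the highest knockdown library met the lowest nontargeting ones. KCND3 had 24.0, 25.5, 20.7, 25.3 and 25.0 CPM with knockdown, against 32.4, 29.6, 27.2, 25.5 and 30.9 CPM with the nontargeting guide, touching at 25.5 (log2 -0.28 ± 0.08, edgeR adjusted p = 0.010). With library sizes the 4 lower calls ended, and 4 higher ones were made, KCNC1 and KCNT1 among them.

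Library makeup moved with this comparison. The 7SL RNA genes took 3.61 to 21.0% of counts (median 5.25%) in knockdown neurites and 11.4 to 29.8% (median 14.2%) in nontargeting neurites, and protein-coding genes a median 81.1% with knockdown and 69.9% with the nontargeting guide. Neuron markers summed to 7432 to 8134 CPM in knockdown neurites and 6075 to 7116 CPM in nontargeting neurites (2 of 10 called higher, 3 lower). Neural progenitor markers summed to 444 to 538 CPM in knockdown neurites and 361 to 430 CPM in nontargeting neurites (1 of 7 called higher, 2 lower). Their part in the member changes was not tested. A fit of protein-coding genes alone gave 6 members higher and 5 lower. KCNC1 was at 0.69 in it.

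**Figure D4:**
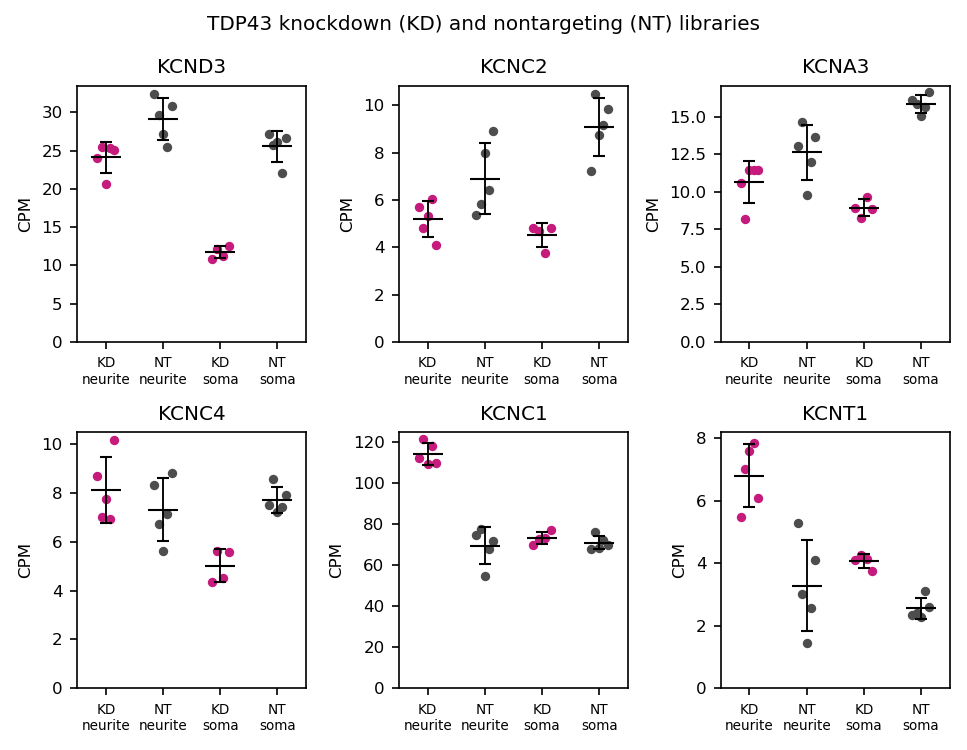
CPM (vertical axis, from 0) of 6 members in each library of the TDP43 experiment, with knockdown (KD) left of nontargeting (NT) in neurites and then in soma; dots are libraries, bars the mean and SD. KCND3, KCNC2, KCNA3 and KCNC4 are lower in knockdown soma than in nontargeting soma, and KCNC1 is higher in knockdown neurites (114 CPM) than in the other 3 groups.

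The fractions differed in their response to TDP43 knockdown. The neurite to soma ratio rose for 9 members and fell for 1 of 36 tested, against 10.5% of all genes called (5.81% higher, 4.67% lower), a members' share of 27.8%. Among the 9 were KCNC4, KCNC1 and KCNC2, at 0.75 ± 0.17, 0.66 ± 0.09 and 0.62 ± 0.20 (edgeR adjusted p = 0.0063, 5.2e-05 and 0.048). KCND3 had the largest change, 0.85 ± 0.11 (edgeR adjusted p = 1.6e-05): its CPM in knockdown libraries averaged 24.1 ± 2.00 in neurites and 11.7 ± 0.785 in soma, and in nontargeting libraries 29.1 ± 2.76 and 25.6 ± 2.01. The ratios of KCNA3 and KCNA2 rose by 0.58 ± 0.13 and 0.41 ± 0.10 (edgeR adjusted p = 0.0044 and 0.011). The ELK gene KCNH8 had the 1 fall, at -0.29 ± 0.09 (edgeR adjusted p = 0.049). Its call ended without the count filter and with library sizes, where 0 members were called lower.

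KCNC4 had 8.71, 7.02, 7.75, 6.95 and 10.2 CPM in knockdown neurites, against 8.31, 6.73, 5.63, 7.13 and 8.82 CPM in nontargeting neurites, where the groups overlapped and no change was called (adjusted p = 0.45 by edgeR). KCNA3 had 10.6, 8.22, 11.5, 11.5 and 11.5 CPM in knockdown neurites, against 13.1, 14.7, 9.80, 12.0 and 13.7 CPM in nontargeting neurites, with overlap (adjusted p = 0.068 by edgeR). KCNC2 had 5.72, 4.81, 5.33, 6.04 and 4.11 CPM in knockdown neurites, against the nontargeting values given above, with overlap (adjusted p = 0.084 by edgeR). For these 3 genes the soma values stood apart and the neurite values did not. KCNC1 had 69.9, 72.8, 73.2 and 76.9 CPM in knockdown soma, against 68.1, 76.1, 68.6, 72.1 and 70.0 CPM in nontargeting soma (adjusted p = 0.70 by edgeR). Its soma libraries overlapped, while its neurite libraries did not.

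The axonal gene KCNA2 had 74.5, 80.2, 80.4, 79.0 and 84.4 CPM in knockdown neurites, against 77.2, 76.3, 51.7, 60.9 and 69.6 CPM in nontargeting neurites. In soma it had 70.6, 69.6, 68.3 and 73.8 CPM with knockdown, against 81.8, 81.0, 74.4, 83.5 and 79.1 CPM with the nontargeting guide. Knockdown libraries were thus below all nontargeting ones in soma, where the change was not called (adjusted p = 0.085 by edgeR), and mostly above them in neurites.

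The rises differed in pattern. KCND3, KCNC4, KCNC2 and KCNA3 fell in soma by more than they changed in neurites, while KCNC1 rose in neurites and was not called in soma. The ratio change and the fraction comparisons share their libraries. Members called in both fractions numbered 6, which is 31.6% of the soma and 54.5% of the neurite calls, and of these KCNB2, KCND3, KCNH1, KCNH5 and KCNT1 had the same direction in both. This overlap, too, was not computed over all genes. The KCNC2 call is weak, since it ended when any of 15 of the 19 libraries was left out in turn (adjusted p between 0.0501 and 0.11). With library sizes 3 members, KCND3, KCNC4 and KCNC1, were called higher and 0 lower, and the protein-coding fit gave 8 higher and 1 lower.

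**Figure D5:**
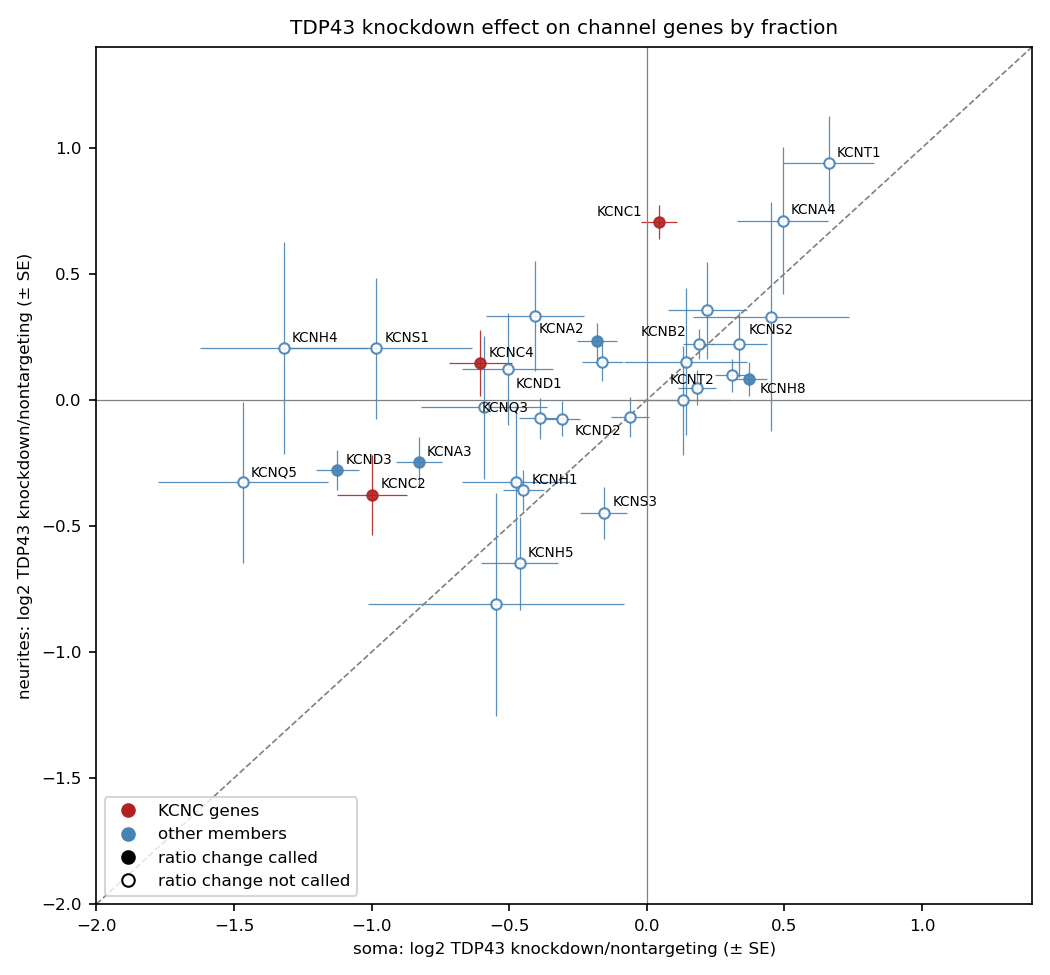
Log2 change with TDP43 knockdown in neurites (vertical axis) against soma (horizontal axis) for 32 of the 36 members tested, with standard errors; red marks KCNC genes, filled symbols a called change of the neurite to soma ratio, and labels members called in any of the 3 comparisons. On the dashed line both changes are equal; the red points lie above it, as do KCND3 and KCNA3.

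The 2 knockdowns differed in their effect on several members when both experiments were fitted together. In neurites the TDP43 effect exceeded the hnRNPA1 effect for 11 members and was below it for 2, of 37 tested (background 16.8% called, 10.5% higher and 6.37% lower). The differences were 1.37 ± 0.33 for KCNT1, 0.58 ± 0.10 for KCNC1 and 0.56 ± 0.10 for KCNH7 (edgeR adjusted p = 0.0018, 9.8e-06 and 2.4e-05). KCNT1, for example, averaged 6.80 ± 1.01 CPM in TDP43 knockdown neurites and 3.28 ± 1.46 CPM in their controls, and 2.13 ± 0.532 CPM in hnRNPA1 knockdown neurites and 2.83 ± 0.626 CPM in theirs. In soma 3 members were above and 6 below, of 37 tested (background 12.7%, 6.59% higher and 6.12% lower), with KCND3 at -0.94 ± 0.10 and KCNH8 at 0.62 ± 0.11 (edgeR adjusted p = 7.0e-10 and 3.2e-05). Without sample 4 of every group in that fit 5 members were called in soma. KCNC2, KCNA3, KCND2 and KCNH1 were lower in soma with both knockdowns, each against its own controls. With library sizes KCND2 was not called in TDP43 knockdown soma. This overlap was not computed over all genes, so nothing particular to the members is read from it.

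Genomic span was set beside the calls as a description. After hnRNPA1 knockdown in neurites the median genomic span was 383.4 kb for the 11 members that fell and 25.6 kb for the 23 not called. In soma it was 457.4 kb for the 5 that fell and 64.2 kb for the 30 not called, though KCNA3, which fell in both, spans 2.57 kb. The member that rose in hnRNPA1 knockdown soma spans 2.3 kb, and the 2 that rose in neurites had a median of 210.2 kb. After TDP43 knockdown it was 430.0 kb for the 4 that fell in neurites, 111.6 kb for the 7 that rose there and 25.6 kb for the 25 not called. In TDP43 knockdown soma the 13 that fell, the 6 that rose and the 17 not called had medians of 169.8, 238.4 and 36.5 kb. The part of length in these calls was not tested.

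Other genes around these channels were described from fixed lists, with the called gene of largest change named in each. Their counts stand beside the shares of all genes called, which were 18.9% in TDP43 knockdown soma, 24.8% in its neurites and 10.5% for its ratio change, 7.09% in hnRNPA1 knockdown soma and 16.2% in its neurites. Some counts, such as 3 of 13 in TDP43 knockdown neurites, lie near that background. Others lie above it, such as 2 inward rectifiers higher and 4 lower of 9 in TDP43 knockdown soma. The lists were not tested as sets, and nothing particular to a list is read from them. The 18 auxiliary subunits and partners include KCNIP1, which binds KCND channels and fell with TDP43 knockdown by 0.67 ± 0.09 in soma and by 0.65 ± 0.11 in neurites (edgeR adjusted p = 1.2e-06 and 5.4e-05). In that list 3 rose and 1 fell of 13 tested in TDP43 knockdown soma, 2 rose and 1 fell in neurites, and the neurite to soma ratio fell for 2, led by KCNIP3 at -1.15 ± 0.34 as log2 (edgeR adjusted p = 0.030). With hnRNPA1 knockdown 1 of 13 rose in soma, KCNIP4 at 0.61 ± 0.11, and 2 fell in neurites, led by DPP10, a KCND partner, at -0.48 ± 0.07 (edgeR adjusted p = 0.0003 and 2.0e-05).

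Of 20 anchors and scaffolds 5 rose and 2 fell in TDP43 knockdown neurites, led by NFASC, an axon initial segment adhesion protein, at 0.59 ± 0.06 (edgeR adjusted p = 6.9e-08). The NFASC ratio rose by 0.44 ± 0.09, 1 of 2 rises and no fall. In TDP43 knockdown soma 3 anchors rose and 3 fell, led by LGI1, a secreted partner of KCNA channels, at 0.76 ± 0.21. With hnRNPA1 knockdown 3 anchors fell in soma and 5 in neurites, and 0 rose, led by the adhesion gene CNTN1 at -0.37 ± 0.06 and -0.53 ± 0.06 (edgeR adjusted p = 0.0001 and 2.7e-07).

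Of 15 inward rectifier genes 9 were tested in the TDP43 libraries. In soma 2 rose and 4 fell, led by KCNJ5 at -1.38 ± 0.36, and in neurites 3 rose and 3 fell, led by KCNJ13 at -1.29 ± 0.34 (edgeR adjusted p = 0.0051 and 0.0057). Two-pore-domain leak channels (15 genes, 7 tested) had 3 lower in TDP43 knockdown soma, led by KCNK2 at -1.14 ± 0.22 (edgeR adjusted p = 0.00037), and 0 called in neurites, and the ratio rose for 1, KCNK9. Calcium-activated and hyperpolarization-activated channels (14 genes, 10 tested) had 1 lower in soma, KCNN1 at -0.35 ± 0.10, and 3 higher in neurites, led by the small-conductance gene KCNN2 at 0.94 ± 0.19 (edgeR adjusted p = 0.010 and 0.00067). With hnRNPA1 knockdown 2 of 9 inward rectifiers rose in soma, led by KCNJ14, and 1, KCNJ3, fell in neurites. Of 5 leak channels 1 fell in soma, and 1 rose and 1 fell in neurites: the leak channel KCNK10 fell in both fractions, by 0.37 ± 0.07 in soma and by 0.49 ± 0.09 in neurites, and the calcium-activated KCNMA1 fell in neurites by 0.24 ± 0.07.

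Between fractions of untreated neurons, where 56.5% of all genes were called, 12 of 20 anchors were higher in neurites and 3 lower, led by DLG1, a scaffold, at 2.81 ± 0.10 (edgeR adjusted p = 6.2e-16), with a list median of 0.41 against -0.21 over all genes. Inward rectifiers had 6 of 11 lower there and 0 higher, with a median of -0.70, led by KCNJ2 at -2.001 ± 0.39. Auxiliary subunits had 3 of 11 higher and 1 lower, led by DPP10 at 1.68 ± 0.11, leak channels 1 of 7 higher and 2 lower, led by KCNK2, and calcium- and hyperpolarization-activated channels 4 of 12 higher and 2 lower, led by HCN2. In nontargeting neurons the leading genes of these lists differed between experiments, except KCNN2, higher in neurites by 1.55 ± 0.21 in the hnRNPA1 and 1.236 ± 0.22 in the TDP43 experiment.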

How the data were processed

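RNA-seq libraries of neurite and soma fractions were counted per gene. The authors' deposited table holds expected counts, with 81.1% of nonzero values whole within 0.005. The notes on processing by the submitters name STAR 2.7.11b, featureCounts (Subread 2.0.6) and the build hg38, while annotation release, strand and multimapping settings were not stated in any label or header. Gene counts do not resolve splicing.

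Values were rounded to whole numbers and tested in R 4.3.3 with edgeR 4.0.16 (TMM, filterByExpr, quasi-likelihood F-test, limma 3.58.1) within each experiment, with joint fits for the differences between experiments. Calls have a Benjamini-Hochberg adjusted p under 0.05 over all genes tested. CPM are counts per 1e6 of the TMM-scaled total, scaled within each experiment, so levels across experiments are not on 1 scale. Libraries under 100000 counts were left out. The fits were checked on simulated data. Gene types, exon lengths, overlaps and transcripts are from GENCODE 29, which held 58228 of the 63241 IDs and all 42 members. No genome or protein sequence was used.

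Members and lists were chosen with earlier results of these data known. A few members are not reported here by name or value, and counts, sums and medians over the members include them. Library values are given for every other called member of a knockdown or ratio comparison, or the 8 of largest change, and for 4 members per side between fractions. Alternatives were DESeq2 1.42.0, library sizes without TMM, no filter, sample number as a block, each library left out and, chosen after seeing the data, protein-coding genes only. Precision is limited by depth, and intervals cover counting error only.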

Additional observations from a re-analysis of the deposited data

Results flagged for a closer look

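Single libraries far from the rest of their group were sought in 96 groups of named members, of which chance flags about 1 in 20. In the hnRNPA1 experiment these were 1 knockdown neurite library of KCNC2 at 5.09 CPM and 1 of KCNH7 at 63.3 CPM, 1 nontargeting neurite library of KCNA6 at 30.5 CPM and 1 of KCNQ5 at 0.272 CPM, and 1 nontargeting soma library of KCNH8 at 21.2 CPM. In the TDP43 experiment they were 1 knockdown soma library of KCNC2 at 3.76 CPM, 1 nontargeting neurite library of KCND2 at 31.2 CPM, and nontargeting soma libraries of KCNQ5 at 0.321 CPM and of KCND3 at 22.1 CPM. In untreated neurites KCNA5 had 1 library at 1.92 CPM beside 3 at 0.

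The effect of TDP43 knockdown differed between neurites and soma, by the interaction test of edgeR (adjusted p under 0.05), for these members among others. The log2 differences were 0.85 for KCND3, 0.75 for KCNC4, 0.66 for KCNC1, 0.62 for KCNC2, 0.58 for KCNA3, 0.41 for KCNA2 and -0.29 for KCNH8. The KCNH8 call ended without the count filter and with library sizes.

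The neurite to soma ratio differed between untreated and nontargeting neurons, in the joint edgeR fit, for these members with library values above. The log2 difference was 2.48 for KCNH7, 2.00 for KCNH8, 0.87 for KCNB2, 0.78 for KCNT2 and 0.39 for KCND2. It was -0.55 for KCNC2, -0.67 for KCNA6, -1.60 for KCNQ5, -1.79 for KCNG1, -2.23 for KCNA5, -2.31 for KCNS1 and -2.47 for KCNA1. The median over all genes was -0.46, and of these members KCNC2 and KCNA6 were nearest to it. KCNG1 had few counts, and its value is a description. Kit version and experiment cannot be told apart in these differences.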

How the results depend on the processing

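For 58 pairs of a named member and its comparison, the direction and the call held in 56 of 57 with DESeq2, which gave 1 pair no adjusted p, in 55 without a filter, in 57 with protein-coding genes only, in 53 with the replicate block and in 43 with library sizes, where 11 lost the call and 4 reversed. Reversed were KCNT2 and KCNB2 in untreated neurites (both -0.10) and KCNH8 (-0.024) and KCNH7 (-0.14) in TDP43 nontargeting neurites. With library sizes, called members numbered 28 between untreated fractions, 27 between TDP43 nontargeting fractions, 9 and 4 in soma and neurites after TDP43 knockdown, and 3 for its ratio change.

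Titles give neurite and soma samples of a group the same numbers, but no label says that equal numbers share a culture. Median correlations between fractions were 0.036 for the same number and -0.002 for different numbers in the hnRNPA1 experiment. They were 0.024 and -0.003 in the TDP43 experiment, and 0.064 and -0.01 in untreated cells. Between guides of 1 fraction the medians were 0.03 and -0.006 in the hnRNPA1, and -0.012 and 0.005 in the TDP43 experiment. Correlations between fractions ran from -0.195 to 0.35 for the same number and from -0.289 to 0.269 for different numbers in the hnRNPA1 experiment, from -0.084 to 0.085 and from -0.149 to 0.096 in the TDP43 experiment, and from -0.036 to 0.155 and from -0.168 to 0.129 in untreated cells. Between guides of 1 fraction they ran from -0.09 to 0.155 and from -0.316 to 0.434 in the hnRNPA1, and from -0.087 to 0.102 and from -0.155 to 0.07 in the TDP43 experiment. Since these ranges overlapped, the numbers were not taken as pairs in the main fits, but pairing was not excluded. With the replicate block KCNT1, KCNQ5 and KCNS1 were not called in TDP43 knockdown soma (edgeR adjusted p = 0.0677, 0.0728 and 0.441), nor KCND3 in its neurites (0.147) or KCNQ5 in hnRNPA1 knockdown neurites (0.0605). With the block 10 members were called in TDP43 knockdown soma (2 higher, 8 lower) and 5 for the difference between knockdowns in soma. Leaving out libraries gave 12 to 17, 15 to 18 and 15 to 21 members between untreated, hnRNPA1 and TDP43 nontargeting fractions, 6 to 7 and 9 to 14 in hnRNPA1 knockdown soma and neurites, 13 to 21 and 9 to 12 in TDP43 knockdown soma and neurites, 0 and 8 to 12 for the hnRNPA1 and TDP43 ratio changes, 5 to 9 and 10 to 13 for the difference between knockdowns in soma and neurites, and 17 to 21 for untreated against nontargeting ratios. The soma value of 5 came without sample 4 of every group. The cause of these shifts was not tested.

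Over all genes, library sizes called 1677 in place of 4170 in TDP43 knockdown soma, 2580 in place of 5470 in its neurites, 328 in place of 2306 for its ratio change, 16965 in place of 10483 between untreated fractions, 16427 in place of 10232 between TDP43 nontargeting fractions and 1293 in place of 2908 for the difference between knockdowns in soma. The block called 1751, 3345 and 1633 in TDP43 knockdown soma, its neurites and that difference. Without sample 5, 2532 in place of 3855 were called for the difference in neurites. For the hnRNPA1 ratio change, 35 genes were called, 72 with DESeq2, 71 with library sizes, 140 without a filter, 55 with the block and 12 to 73 without 1 library.

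Depth limits members under about 1 CPM, whose counts are few.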
